A study of Homo sapiens with 12 samples.

Results

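The RNA of 7 genes for cell surface adhesion molecules, ICAM1, ICAM4, ICAM5, VCAM1, CD44, ALCAM and L1CAM, was followed through 12 libraries of HK2 cells, an immortalized human line derived from proximal tubular epithelium. They were taken by gene symbol from the 58278 genes listed, and each symbol matched 1 gene. ICAM1 and VCAM1 rose together with TNF-α, as did CD44 to a smaller extent, and they then parted in cells that also received propionate or butyrate. VCAM1 fell to a few counts per library, CD44 fell below its level in untreated cells, and ICAM1 stayed above untreated cells in every treated group.

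Leukocytes that leave the blood or crawl along an epithelium hold on to proteins of the immunoglobulin superfamily on the tissue cell. ICAM1 is the ligand of the β2 integrins of leukocytes, VCAM1 that of the α4 integrins, and both are textbook targets of TNF-α signalling through NF-κB. CD44 is the main receptor for hyaluronan, ALCAM binds itself and the lymphocyte receptor CD6, and L1CAM is an adhesion molecule of neurons, of the collecting duct and of many epithelial cell lines. ICAM4 and ICAM5 are known from red cells and from neurons of the telencephalon. In the kidney, ICAM1, VCAM1 and CD44 are known for their rise on injured tubules.

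Cells were left untreated and unstimulated (Ctrl) or were given 5 ng/mL of TNF-α for 3 h (TN). In 4 further groups the same TNF-α was combined with a short-chain fatty acid (SCFA) for 24 h, either 15 mM propionate or 3 mM butyrate, which came before TNF-α in PRTN and BUTN and after it in TNPR and TNBU. Each group had 2 biological replicates of the same cell line, so the 6 groups describe that line only. The general treatment text of the labels names thapsigargin and JQ1 in place of these agents, and the treatments used here are those in the label of each library. No cells with an SCFA alone and none with TNF-α alone at the later time were among the groups, so the order of the agents and the time since TNF-α cannot be told apart. The doses of the 2 SCFAs differ.

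The values are expected counts, the number of reads that the RSEM program assigns to each gene. Library totals ran from 27269986 to 33851130 counts. Levels are given as CPM, counts scaled to a common library size with TMM factors of 0.913 to 1.06, and means carry the SD of 2 libraries. A count of 3, taken as the limit of detection, was worth 0.0867 to 0.112 CPM, and such limits cover counting error only. Replicates differed by more than counting noise in every group, and most in TNPR and TNBU. Of 5 epithelial marker genes, KRT8, KRT18, KRT19 and EPCAM were expressed in every group. CDH1, E-cadherin, averaged 0.109 ± 0.049 CPM in TN, which is the limit of detection, 0.267 ± 0.038 CPM in Ctrl and 9.94 to 14.1 CPM in the SCFA groups. The sum of the 5 was 1116 to 1215 CPM per library without SCFA and 1729 to 2318 CPM with it, with KRT19 at 4.53 CPM in TN and 82.4 to 119 in the SCFA groups and EPCAM, in contrast, at 57.1 and 15.3 to 22.1 CPM. Of 8 proximal tubule genes, 6 averaged at least 1 CPM over the 12 libraries. The sum of all 8 was 709.7 to 763.5 CPM in Ctrl and TN and 281.6 to 319.4 CPM in the SCFA groups. LRP2, the endocytic receptor megalin, had 0 counts in Ctrl and TN and 0.447 to 0.869 CPM in the SCFA groups, against the direction of that sum, and SLC34A1, a phosphate transporter of that segment, had at most 3 counts in any library. Markers of other cells moved with SCFA too, and their part in the results was not tested. The sum of 11 leukocyte markers was 1.51 to 1.82 CPM without SCFA and 3.97 to 7.97 CPM with it, and the B cell gene MS4A1 was at 0. Of these, CD14 reached 2.38 to 3.15 CPM with SCFA, and CSF1R (1.11) and LYZ (1.02) passed 1 CPM in PRTN. The sum of 6 endothelial markers was 0.143 to 0.287 CPM without SCFA and 2.29 to 3.87 CPM with it, with SELE at 0. The sum of 5 fibroblast markers was 52.7 to 59.7 CPM without SCFA and 204 to 255 CPM with it. In such bulk libraries fewer expressing cells and less RNA per cell cannot be told apart.

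By GENCODE release 44 on GRCh38, ICAM1 (chr19:10271093-10286615), ICAM4 (chr19:10286955-10288522) and ICAM5 (chr19:10289952-10296778) follow each other on the plus strand, with 339 bases between the first pair and 1429 between the second. VCAM1 (chr1:100719742-100739045), CD44 (chr11:35138882-35232402) and ALCAM (chr3:105366909-105576900) are also on the plus strand, and L1CAM (chrX:153861514-153886173) is on the minus strand. The antisense gene ICAM4-AS1 covers 815 bases of ICAM1 exons and all 1439 exon bases of ICAM4. The library kit marks strand, but the strand setting of the counting is not given in the sources used here, so reads of such a pair cannot be told apart with certainty. ICAM4-AS1 itself ran from 0.276 CPM in Ctrl to 1.67 CPM in BUTN, far below ICAM1 in each group.

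The 250 bases before the RefSeq transcription start of ICAM1 and VCAM1 are shown. These are the members that rose most with TNF-α and that came apart under SCFA. They are RefSeq sequences on GRCh38.p14, plus strand, from chr19:10270870-10271119 and chr1:100719492-100719741, written 5′ to 3′. Capitals mark every match, on either strand, to GGNNNTTCC or to the NF-κB consensus.
ICAM1: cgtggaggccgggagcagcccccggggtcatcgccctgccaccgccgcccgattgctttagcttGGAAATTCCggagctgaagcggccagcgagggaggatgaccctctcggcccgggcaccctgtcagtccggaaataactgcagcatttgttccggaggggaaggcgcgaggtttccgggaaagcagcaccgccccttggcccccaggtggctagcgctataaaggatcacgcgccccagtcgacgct
VCAM1: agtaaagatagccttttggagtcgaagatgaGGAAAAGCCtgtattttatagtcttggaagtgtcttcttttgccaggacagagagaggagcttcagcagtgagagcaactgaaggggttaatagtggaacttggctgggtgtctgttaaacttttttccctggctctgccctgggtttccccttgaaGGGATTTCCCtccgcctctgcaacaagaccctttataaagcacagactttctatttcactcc
The ICAM1 window held GGAAATTCC at positions -186 to -178, counted from the start site, which matches GGNNNTTCC on both strands. The VCAM1 window held GGGATTTCCC at positions -62 to -53, which matches the NF-κB consensus on both strands and overlaps a match to GGNNNTTCC, and a further match to GGNNNTTCC on the minus strand at positions -219 to -211. All 7 members had a window in the table. A match to the consensus was also found in the window of ICAM4, at positions -57 to -48, and neither pattern was in those of CD44, ICAM5, ALCAM and L1CAM. Over 35116 promoter windows of the same length, 9.96% held the consensus and 17.1% held GGNNNTTCC. The AP-1 pattern TGANTCA was in none of the members' windows and in 6.57% of all, and the GC box GGGCGG, found in 42.6% of all, was in those of ICAM1, ICAM5, CD44, ALCAM and L1CAM. These are matches of letters in 1 window per start site and no measurement of binding. RefSeq and GENCODE starts can differ. The ICAM1 window runs past the GENCODE start of that gene. The windows of CD44 (chr11:35138921-35139170) and L1CAM (chrX:153875945-153876194 and chrX:153876015-153876264) lie inside the GENCODE genes, so sequence before the GENCODE starts of CD44 and L1CAM was not searched.

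**Figure D1:**
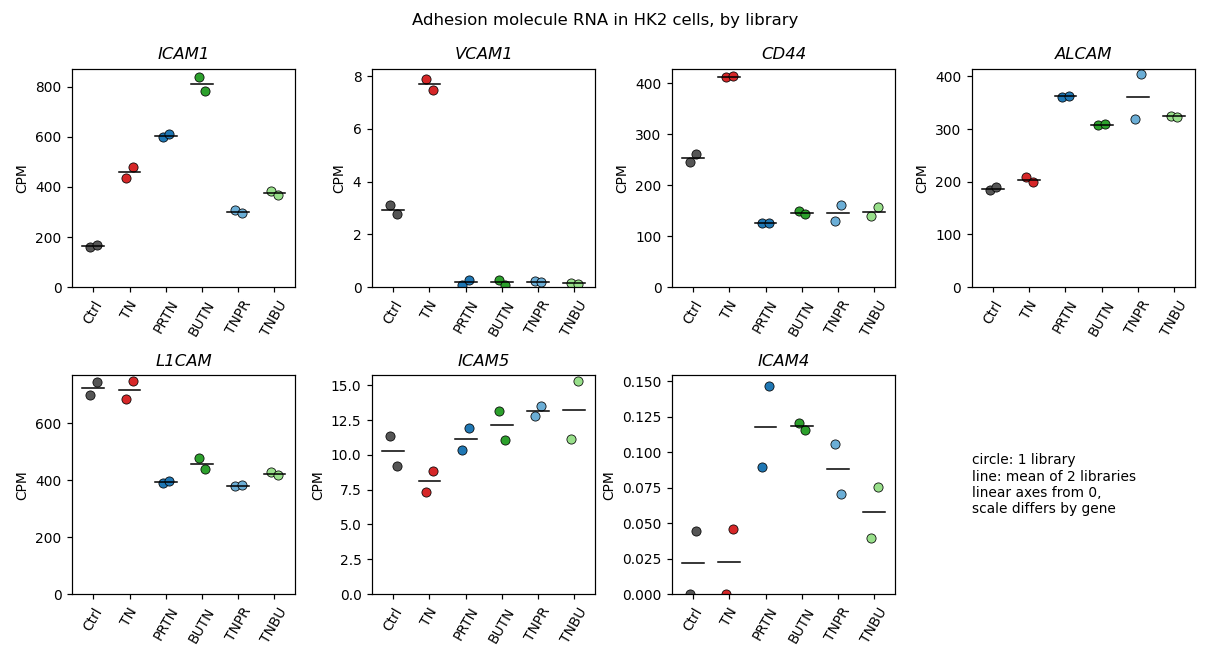
Level of each member in every library, in CPM on linear axes from 0 whose scale differs by gene, with 1 circle per library and a line at the mean of 2. ICAM1 is above Ctrl in all 5 treated groups and highest in BUTN, at 838 and 782 CPM, whereas VCAM1 and CD44 are highest in TN and below Ctrl in all SCFA groups.

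Levels of different genes were compared per kilobase of annotated exon, as CPM per kb. In Ctrl the order was L1CAM at 99.3 ± 4.4 CPM per kb, ICAM1 at 47.7 ± 2.0, ALCAM at 25.99 ± 0.53, CD44 at 25.4 ± 1.1, ICAM5 at 2.61 ± 0.39 and VCAM1 at 0.486 ± 0.043 (SD, n = 2). ALCAM and CD44 differed by less than their spread, and the other neighbours were farther apart, with ICAM4 below them all. In TN, ICAM1 stood first at 133 ± 8.3 CPM per kb, ahead of L1CAM at 98.5 ± 6.4 and CD44 at 41.3 ± 0.18. In BUTN, ICAM1 reached 235 ± 12 CPM per kb, against 14.6 ± 0.39 for CD44. The ratio of ICAM1 to CD44 per kilobase within a library was 1.88 in both Ctrl libraries and 3.08 and 3.34 in the TN libraries. With SCFA before TNF-α it reached 13.8 and 14 for propionate and 16.3 and 15.8 for butyrate. With SCFA after TNF-α it was 6.93 and 5.30 for propionate and 7.95 and 6.78 for butyrate. This ratio does not depend on how libraries are scaled, and its groups did not overlap except for TNPR and TNBU.

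ICAM1, the integrin ligand, had 159 and 169 CPM in Ctrl and 437 and 478 in TN. SCFA before TNF-α gave 597 and 611 CPM for propionate and 838 and 782 for butyrate. SCFA after TNF-α gave 308 and 295 CPM for propionate and 383 and 367 for butyrate. No group overlapped another, and every treated library was above both Ctrl libraries. A gene was called when limma-voom, fitted to all 12 libraries, gave it a change of more than 1.5-fold together with a Benjamini-Hochberg p below 0.05 over the 24342 tested genes. In TN vs Ctrl, ICAM1 rose with a log2 fold change of 1.48 (SE 0.06, limma-voom adjusted p = 2.62e-07) and ranked 2 of the 24342 genes by p. With VCAM1 and CD44 it was 1 of 3 members called up in that comparison, in which 0.764% of all tested genes were called up. None was called down, also by edgeR and DESeq2, against 0.534% of all genes, and no other member had an unadjusted p under 0.05.

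Against TN, ICAM1 rose in BUTN by a log2 fold change of 0.82 (SE 0.06, limma-voom adjusted p = 1.8e-07). In PRTN it was higher by 0.40 (SE 0.06, limma-voom adjusted p = 7.85e-05), which is 1.32-fold and under the fold threshold. In TNPR it fell by 0.60 on the log2 scale (SE 0.06, limma-voom adjusted p = 3.06e-06), a 1.52-fold change close to the threshold. That call was lost without TN replicate 2 (-0.57), without TNPR replicate 2 (-0.57) and with scaling by library size (-0.43). In TNBU the log2 fold change was -0.29 (SE 0.06, limma-voom adjusted p = 0.00133), also under the fold threshold. Against Ctrl, ICAM1 rose in all 4 SCFA groups, by log2 fold changes of 1.88 (PRTN), 2.30 (BUTN), 0.88 (TNPR) and 1.19 (TNBU) (limma-voom adjusted p at most 1.96e-07). These comparisons share their TN or Ctrl libraries and are not independent of each other.

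VCAM1, the ligand of α4 integrins, was weakly expressed, with 91 and 77 counts in Ctrl (2.94 ± 0.26 CPM) and 212 and 208 counts in TN (7.68 ± 0.30 CPM). The 4 libraries with SCFA before TNF-α held 3 and 9 counts for propionate and 9 and 3 for butyrate. The 4 with SCFA after it held 8 and 6 counts for propionate and 5 and 4 for butyrate. All 8 were therefore at or close to the limit of detection and below every Ctrl library. VCAM1 rose in TN vs Ctrl by a log2 fold change of 1.38 (SE 0.18, limma-voom adjusted p = 0.00128), and the adjusted p ran from 0.000852 to 0.0481 over the other settings that gave one. Against TN it fell in every SCFA group, with log2 fold changes of -5.504 for PRTN (SE 0.47), -5.49 for BUTN (SE 0.47), -5.07 for TNPR (SE 0.43) and -5.51 for TNBU (SE 0.49), and a limma-voom adjusted p of at most 1.06e-06. Against Ctrl they were -4.13, -4.12, -3.69 and -4.13 in the same order. The size rests on very few counts. Without PRTN replicate 1 the log2 fold change of PRTN vs TN was -4.73 and without PRTN replicate 2 it was -6.25, and without BUTN replicate 1 and replicate 2 that of BUTN vs TN was -6.28 and -4.69. The direction and the call held in each of these fits.

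CD44, the hyaluronan receptor, had 246 and 261 CPM in Ctrl and 412 and 414 in TN. Under propionate it was 126 and 127 CPM in PRTN and 129 and 161 in TNPR. Under butyrate it was 149 and 143 CPM in BUTN and 139.5 and 157 in TNBU. All 8 SCFA libraries were below both Ctrl libraries, and the SCFA groups overlapped each other except for PRTN, which was lowest. CD44 rose in TN vs Ctrl by 0.70 on the log2 scale (SE 0.08, limma-voom adjusted p = 0.000664), a 1.63-fold change. Against TN it fell, with log2 fold changes of -1.71 (PRTN), -1.501 (BUTN), -1.52 (TNPR) and -1.48 (TNBU), each with an SE of 0.09 and a limma-voom adjusted p of at most 3.35e-08. Against Ctrl they were -1.01, -0.80, -0.82 and -0.78. The counts sum all isoforms, so the variant exons for which CD44 is known are not resolved.

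**Figure D2:**
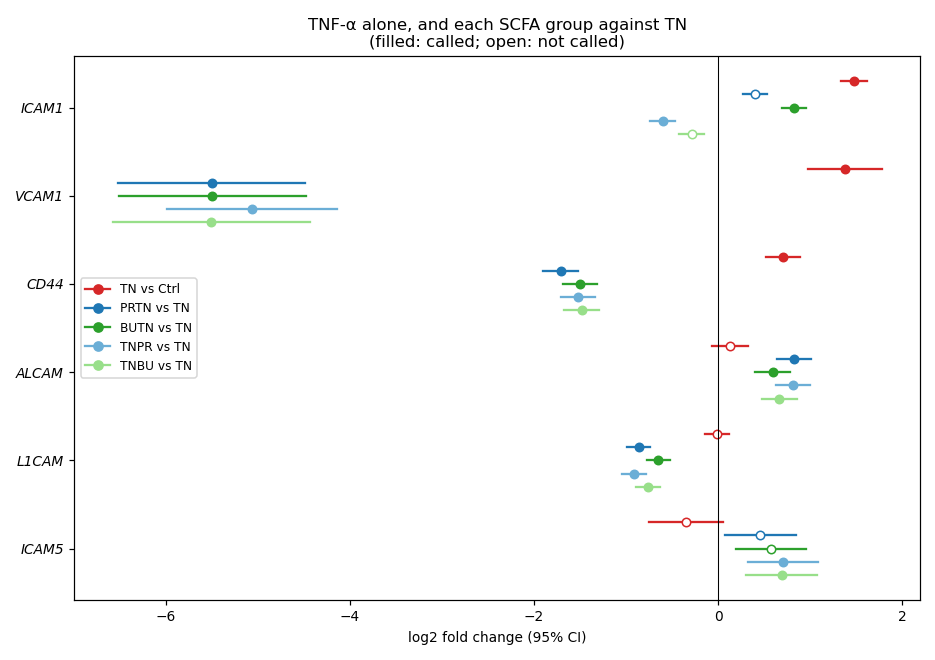
Log2 fold change with its 95% confidence interval for the 6 members other than ICAM4, for TN against Ctrl and each SCFA group against TN. VCAM1 was at or close to the limit of detection in all SCFA groups. Filled points are called and open points are not. The VCAM1 points lie between -5.51 and -5.07 with wide intervals, those of CD44 between -1.71 and -1.48, and those of ICAM1 fall on both sides of 0.

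ALCAM, the ligand of CD6, took the opposite course to CD44 under SCFA. It had 184 and 189 CPM in Ctrl and 209 and 200 in TN, and its log2 fold change of 0.13 between them was not called (SE 0.09, limma-voom adjusted p = 0.528). Propionate went with 361 and 363 CPM in PRTN and 319 and 404 in TNPR. Butyrate went with 307 and 309 CPM in BUTN and 325 and 323 in TNBU. All 8 SCFA libraries were above all 4 without SCFA. ALCAM rose against TN by log2 fold changes of 0.83 (PRTN), 0.59 (BUTN), 0.81 (TNPR) and 0.67 (TNBU), each with an SE of 0.09 and a limma-voom adjusted p of at most 8.7e-05. The change in BUTN was 1.51-fold, and its call was lost without TN replicate 2, BUTN replicate 1, TNPR replicate 1 or TNBU replicate 1 and with no filter on low counts, at log2 fold changes of 0.54 to 0.57.

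L1CAM was at 699 and 744 CPM in Ctrl and 683 and 749 in TN, which overlapped. PRTN held 389 and 397 CPM and TNPR held 378 and 382. BUTN held 476 and 439 CPM and TNBU held 428 and 419. All 8 were below the 4 libraries without SCFA. L1CAM fell against TN, with log2 fold changes of -0.86 (PRTN), -0.65 (BUTN), -0.91 (TNPR) and -0.76 (TNBU), each with an SE of 0.06 and a limma-voom adjusted p of at most 1.48e-06. Scaling by library size alone, which moved the median gene by 0.153 to 0.196 against TN, ended the calls in BUTN (-0.49) and TNBU (-0.56), with L1CAM still lower. The antisense gene L1CAM-AS1 overlaps 359 of its exon bases and was at 0.211 to 0.491 CPM.

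ICAM5 and ICAM4 are the other genes of the cluster beside ICAM1. ICAM5 had 11.4 and 9.21 CPM in Ctrl and 7.34 and 8.87 in TN. SCFA before TNF-α gave 10.4 and 11.95 CPM for propionate and 13.2 and 11.1 for butyrate. SCFA after it gave 12.8 and 13.5 CPM for propionate and 11.1 and 15.3 for butyrate. Its TN libraries were the lowest of all, but the log2 fold change of -0.34 in TN vs Ctrl was not called (SE 0.18, limma-voom adjusted p = 0.388). It rose against TN in TNPR (0.70, SE 0.17, limma-voom adjusted p = 0.00397) and in TNBU (0.69, SE 0.18, limma-voom adjusted p = 0.00481). Both calls were lost without TN replicate 1, and that in TNBU also without TNBU replicate 2. With 1 library left out at a time, the log2 fold change ran from 0.54 to 0.81 in TNPR and from 0.46 to 0.88 in TNBU. The low ends are under the fold threshold. The log2 fold changes of 0.46 in PRTN and 0.58 in BUTN were under the fold threshold, and that in BUTN was called by DESeq2. No SCFA group was called against Ctrl. ICAM4 had at most 4.82 expected counts in any library and 0 in 1 library each of Ctrl and TN, so its level was at or near the limit of detection and no fold change is given.

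Against TN, 1 member was called up and 3 down in PRTN, where 23.9% of all tested genes were called up and 16.7% down. BUTN had 2 up and 3 down (23.1% and 14.8% of all genes), TNPR had 2 up and 4 down (24.9% and 16.9%), and TNBU had 2 up and 3 down (25.0% and 16.5%). Against Ctrl, 2 were up, ICAM1 and ALCAM, and 3 down, VCAM1, CD44 and L1CAM, in each of the 4 SCFA groups. Of all genes, PRTN had 22.6% called up and 16.9% called down against Ctrl, BUTN had 22.0% and 14.9%, TNPR had 23.6% and 16.8%, and TNBU had 23.6% and 16.5%. The 1 or 2 of 7 members called up are near the share among all genes, and the 3 or 4 called down are a larger share, in a short list that was chosen with earlier results known.

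The timing of the SCFA was compared for each acid, after TNF-α against before it. ICAM1 was the only member called. It was lower in TNPR than in PRTN, at 0.499 of its level (log2 fold change -1.003, SE 0.06, limma-voom adjusted p = 1.14e-05), and lower in TNBU than in BUTN, at 0.463 (log2 fold change -1.11, SE 0.06, limma-voom adjusted p = 2.78e-06). In both comparisons it ranked 2 of 24342 genes by p, and only 0.160% and 0.267% of all genes were called in either direction. The call held in all 21 other settings for both acids. The timing effect did not differ detectably between the acids, with a difference of 0.11 on the log2 scale (95% confidence interval -0.07 to 0.29), and 0 members were called for it by limma-voom, edgeR or DESeq2, with 0 at an unadjusted p under 0.05 and 0.00% of all genes called.

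For CD44 the timing difference was 0.19 (95% confidence interval -0.01 to 0.39) with propionate and 0.02 (-0.18 to 0.22) with butyrate on the log2 scale. For ALCAM it was -0.01 (-0.19 to 0.17) and 0.07 (-0.11 to 0.26), and for L1CAM -0.05 (-0.18 to 0.08) and -0.11 (-0.24 to 0.02). The intervals of these 3 genes exclude a change of the size seen for ICAM1. For VCAM1 the intervals of -0.90 to 1.77 with propionate and -1.45 to 1.43 with butyrate were wide, since few counts were left in all 4 groups. The butyrate interval includes a fall of the size seen for ICAM1. The propionate interval ends just short of such a fall but includes a rise as large. For ICAM5 the values were 0.24 (-0.09 to 0.58) and 0.12 (-0.22 to 0.46).

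**Figure D3:**
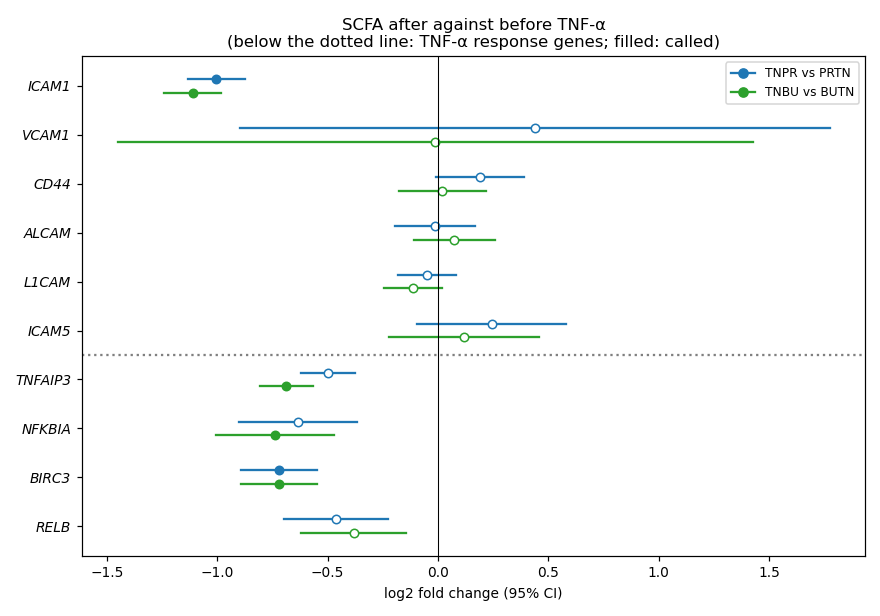
Log2 fold change with its 95% confidence interval for SCFA after TNF-α against SCFA before it, with members above the dotted line and 4 TNF-α response genes below it. Filled points are called. ICAM1 lies at -1.003 and -1.11, clear of the intervals of CD44, ALCAM and L1CAM, and the response genes lie from NFKBIA at -0.74 to RELB at -0.38, both with butyrate.

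Propionate and butyrate were compared at each time with doses that differ, 15 mM and 3 mM. No member was called in PRTN vs BUTN, where 0.168% of all genes were, or in TNPR vs TNBU, where 0.00822% were. The count was also 0 with edgeR and with DESeq2, while 4 and 2 members had an unadjusted p under 0.05. ICAM1 was lower with propionate before TNF-α, by a log2 fold change of -0.42 (95% confidence interval -0.55 to -0.30, limma-voom adjusted p = 0.0159), which is 1.34-fold and under the fold threshold. After TNF-α its log2 fold change was -0.31 (-0.45 to -0.18, limma-voom adjusted p = 0.251), also under the fold threshold. There the adjusted p of ICAM1 was 0.257 with edgeR and 0.00124 with DESeq2, so it depended on the tool. In PRTN vs BUTN the adjusted p of ICAM1 was 0.0248 with edgeR and 1.21e-07 with DESeq2, but it was not under 0.05 in every alternative. That of L1CAM in PRTN vs BUTN was 0.129 with limma-voom, 0.169 with edgeR and 0.0274 with DESeq2. For the other members above the limit of detection except VCAM1, the log2 fold changes between the acids ran from -0.22 to 0.23, with 95% confidence intervals inside -0.46 to 0.41.

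4 genes that respond to TNF-α were followed as a check of the stimulus. TNFAIP3 and NFKBIA, inhibitors of NF-κB signalling, BIRC3, an inhibitor of apoptosis, and RELB, an NF-κB subunit, all rose in TN vs Ctrl, by log2 fold changes of 2.15, 0.72, 1.03 and 1.05. Against TN, NFKBIA and TNFAIP3 fell in all 4 SCFA groups, by 1.19 to 1.95 and by 0.77 to 1.65 on the log2 scale. BIRC3 rose further in PRTN (1.22), BUTN (1.42) and TNBU (0.70) and was not called in TNPR (0.50). RELB fell in TNPR (-0.79) and TNBU (-0.67), from 23.8 CPM in TN to 13.8 and 14.9, and was not called in PRTN (-0.33) and BUTN (-0.29). After against before TNF-α, BIRC3 fell by 0.72 with either acid, and TNFAIP3 and NFKBIA fell with butyrate, by 0.69 and 0.74.

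The wider adhesion machinery was described with 68 genes in 7 lists, of which 63 were tested. In TN vs Ctrl 2 were called up and 0 down, also with edgeR and DESeq2, while 4 were lower at an unadjusted limma-voom p under 0.05. On the log2 scale VNN1, an ectoenzyme linked to leukocyte trafficking, rose by 1.21. CD47, a receptor of thrombospondin and the ligand of SIRPα, rose by 0.62. Against TN, PRTN had 29 called up and 10 down, BUTN 32 and 8, TNPR 31 and 9, and TNBU 32 and 9. These 29 to 32 of 63 called up and 8 to 10 called down stand beside 23.1% to 25.0% of all tested genes called up and 14.8% to 16.9% called down against TN, the shares for every list count below too. For timing and between the acids limma-voom, edgeR and DESeq2 called 0, while 10 had an unadjusted limma-voom p under 0.05 in TNPR vs PRTN, 12 in TNBU vs BUTN, 13 in PRTN vs BUTN and 5 in TNPR vs TNBU. For comparison, all tested genes had medians of 0.08 to 0.12 against TN on the log2 scale.

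Of 12 tested molecules that leukocytes bind beside the members, 5 or 6 were called up and 2 or 3 down in each SCFA group against TN, with medians of 0.41 to 0.57. ICAM2, a relative of ICAM1 with the same β2 integrin partner, rose from 2.21 ± 0.27 CPM in TN to between 9.07 ± 0.23 in PRTN and 9.87 ± 0.40 in TNBU, with log2 fold changes of 2.03 to 2.15. F11R, a tight junction molecule, rose by 0.68 to 0.77. The other genes of this list that were called up averaged under 1 CPM in TN and in every SCFA group. CD58, the ligand of the T cell receptor CD2, fell from 16.9 ± 0.59 CPM to between 6.77 ± 0.15 in TNPR and 8.59 ± 0.38 in BUTN, by 0.98 to 1.32 on the log2 scale. JAM2 fell by 0.89 to 1.88 from 1.26 CPM. VNN1, raised by TNF-α, fell in PRTN from 5.93 ± 0.26 to 3.37 ± 0.07 CPM, by 0.81 on the log2 scale (limma-voom adjusted p = 0.00196), and was not called in BUTN (0.01), TNPR (-0.54) and TNBU (-0.04). SELE, the endothelial selectin, had 0 counts in every library.

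Among 9 leukocyte integrin chains, 4 or 5 were called up and 0 down in each SCFA group against TN. Only ITGAX among those called reached 1 CPM, and the others averaged under 1 CPM in TN and in every SCFA group. ITGAX rose from 4.08 ± 0.55 CPM in TN to between 8.49 ± 0.15 in PRTN and 11.2 ± 0.65 in TNBU, whereas its partner chain ITGB2 (6.01 ± 0.44 CPM in TN) and ITGB1 (1657 ± 24 CPM in TN) were not called. Of 5 selectin ligands, 3 or 4 were called up, among them a gene under 1 CPM in every group, and 0 down. CD24 rose by 1.32 to 1.41 and PODXL, a sialomucin, by 0.68 to 0.84 on the log2 scale. SELPLG, the leukocyte ligand of P-selectin, rose from 0.713 CPM in TN to 1.60 in PRTN, 1.79 in BUTN and 1.41 in TNBU and was not called in TNPR (0.949 CPM).

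Of the 11 tested genes of the hyaluronan system around CD44, 3 to 5 were called up and 2 down. The hyaluronidase HYAL1 rose by 3.07 to 3.29 and the scavenger receptor STAB1 by 2.78 to 3.38 on the log2 scale, from 0.764 and 0.291 CPM in TN. HYAL3 rose by 0.66 to 0.80, and the hyaluronan synthase HAS2 was called up in BUTN (0.75) but not in PRTN, TNPR and TNBU (0.21 to 0.49). SPP1, osteopontin and a ligand of CD44, fell from 355 ± 7.5 CPM in TN to between 107 ± 11 in TNBU and 110 ± 1.7 in BUTN. HMMR, a hyaluronan receptor that also serves the mitotic spindle, fell by 0.98 to 1.53. Of 6 genes for proteins that tie CD44 and the ICAMs to the cytoskeleton or share those linkers, 2 or 3 were called up and 1 down. Ezrin (EZR) rose by 0.69 to 0.92 and moesin (MSN) fell by 1.02 to 1.27, while radixin (RDX) was not called (0.22 to 0.37). SPN, leukosialin, had about 2 counts in each TN library and 8.46 to 13.6 CPM in the SCFA libraries.

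Of the 5 proteases known to shed such molecules, MMP9 and ADAM8 rose in all 4 SCFA groups, by 2.09 to 2.75 and by 1.45 to 1.73 on the log2 scale, and MMP14 fell by 1.21 to 1.64. ADAM17 fell in PRTN (-0.62), TNPR (-0.79) and TNBU (-0.75) and was not called in BUTN (-0.48). ADAM10 was not called (-0.18 to -0.02). Of 15 further adhesion genes tested, among them relatives of L1CAM and the ALCAM partner CD6, 8 or 9 were called up and 2 down. Their medians were 1.53 to 1.65. NCAM1 rose by 3.70 to 4.11, BCAM, the Lutheran laminin receptor, by 2.80 to 3.27, CADM4 by 2.24 to 2.33, and NRCAM, of the same family as L1CAM, by 1.53 to 1.65 on the log2 scale. EPCAM fell by 1.37 to 1.91. NCAM2 had 0 counts in TN and 18 to 40 counts in the SCFA libraries. CD6, the lymphocyte receptor of ALCAM, had 0 counts in TN and 25 to 44 counts in the SCFA libraries.

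**Figure D4:**
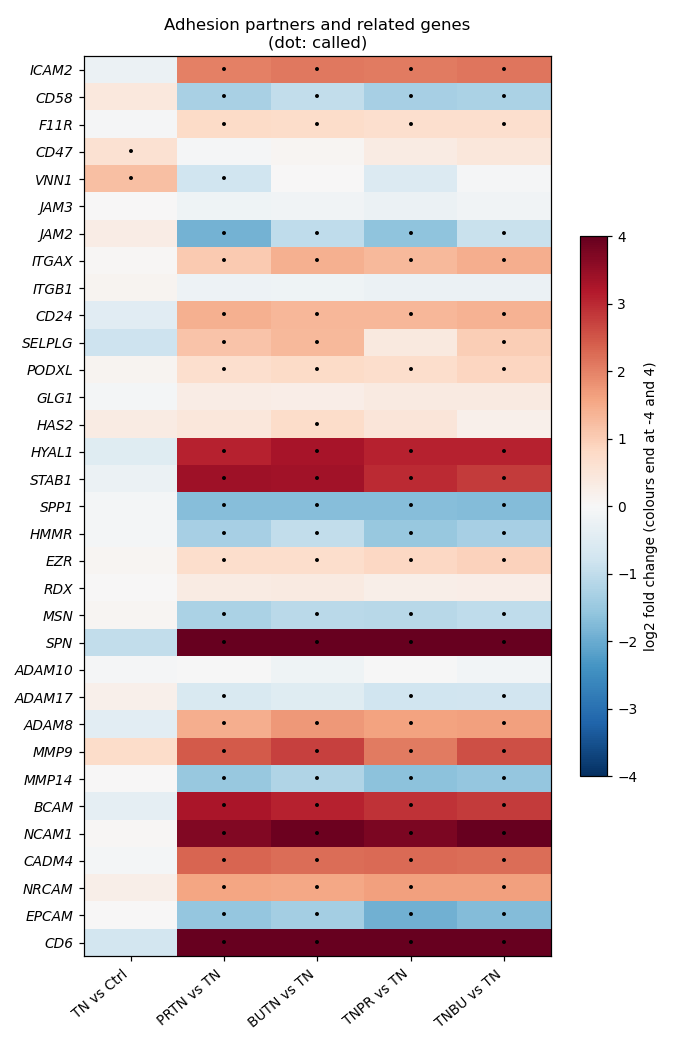
Log2 fold change of genes from the 7 lists, in rows, for TN against Ctrl and each SCFA group against TN, in columns, on a colour scale that ends at -4 and 4, with a dot where a gene was called. Most rows change little in the TN column and alike in the 4 SCFA columns, with HYAL1, STAB1, BCAM, NCAM1, SPN and CD6 among the strongest rises.

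The genes whose levels ran most like each member were found by the Pearson correlation of log2(CPM + 1) over the 12 libraries, among 14984 genes averaging at least 1 CPM. For ICAM1 they were ARHGEF3 (r = 0.960), FOXP1 (0.954) and VPS37B (0.948). For VCAM1 they were PWP1 (0.994), CD40 (0.993) and SLC22A4 (0.993), and for CD44 they were CD40 (0.992), SDCBP (0.992) and CCBE1 (0.991). CD40, a TNF receptor family member, was thus among the nearest genes of both, at 107 CPM in Ctrl, 171 in TN and 46.8 to 52.6 in the SCFA groups. LAMP2, PRPS1 and SETD3 were nearest to ALCAM (0.993, 0.992 and 0.992), CRACR2A, LOXL1 and RAB11B to L1CAM (0.997, 0.996 and 0.995), and METTL26, RDM1 and TMEM219 to ICAM5 (0.957, 0.933 and 0.933). The libraries fall into groups with and without SCFA, a split that the genes nearest to VCAM1, CD44, ALCAM and L1CAM follow. Those nearest to ICAM1 do not follow it, since all were lower in TNPR than in TN and higher in PRTN and BUTN. ARHGEF3, for example, was at 5.74 CPM in TN, 5.58 in TNPR and 7.21 in BUTN. No p is given.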

How the data were processed

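RNA of HK2 cells was measured in 12 libraries, 2 in each of 6 groups, grouped by the label of each library. The authors prepared stranded mRNA libraries, aligned the reads with STAR 2.6.1a to GRCh38 and deposited expected counts per gene, estimated with RSEM on GENCODE 26 without scaling or filtering, and 19.3% of them are not whole. The version and strand setting of RSEM are not given in the sources used here. FastQC 0.11.5 is also named in the submitters' processing notes.

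Expected counts were used unrounded in limma-voom (limma 3.58.1, R 4.3.3) with TMM factors from edgeR 4.0.16. Genes with a geometric mean of at least 1 over the 12 libraries, with 1 added before and subtracted after, were kept (24342 of 58278). Group means without a replicate block gave 14 comparisons. Prior degrees of freedom were 6.12. CPM divide by the counts of kept genes times the TMM factor, and CPM per kb divide by union exon length in GENCODE 44. The P-values rest on the spread between replicate cultures of 1 line. For each gene it was pooled over the 6 groups and drawn toward that of other genes. The larger spread in TNPR and TNBU is therefore averaged with that of the other groups.

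Alternatives were edgeR's quasi-likelihood test and DESeq2 1.42.0 (both on counts rounded to whole numbers), relative log expression and library size scaling, no filter beyond a count of 1 (37730 genes), a literal geometric mean (19096 genes), a fold threshold of 2, only the groups compared, a replicate block and leaving out each replicate in turn. Scripts were tested on simulated data. The text names all members, per list and comparison at most 5 called genes of at least 1 CPM in the higher group with the largest fold changes, and the 3 genes most like each member. List genes without a call are given with their values, and CD6, NCAM2 and SPN are described by counts. The members, the lists and the tests were chosen with earlier results of these data known.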

Additional observations from a re-analysis of the deposited data

Results flagged for a closer look

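ICAM1 differed between SCFA after and SCFA before TNF-α by a test of that difference itself, under both acids. Its log2 fold change was -1.003 in TNPR vs PRTN and -1.11 in TNBU vs BUTN, with lower levels in both libraries of the later SCFA for either acid. The order of the agents and the time since TNF-α cannot be told apart in these groups.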

How the results depend on the processing

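No call of a member was reversed under any alternative, and of the values for single members 1981 kept their side of the threshold, 39 lost a call and 14 gained one. Another 45 values, without a call in either fit, changed sign and are counted among the 1981. Of the counts of called members 286 stayed within 1.5 times. A fold threshold of 2 lowered the count from 4 to 2 in PRTN vs TN, from 5 to 2 in BUTN vs TN, from 6 to 2 in TNPR vs TN, from 5 to 2 in TNBU vs TN, and against Ctrl from 5 to 3 in PRTN, to 2 in BUTN, to 1 in TNPR and to 2 in TNBU, by its own construction. Scaling by library size also ended the L1CAM call in BUTN vs Ctrl (-0.56). ICAM4, at the limit of detection, gained calls in PRTN or BUTN with library size or relative log expression scaling and without Ctrl replicate 2. The ICAM5 rise in BUTN vs TN, not called above, was called under DESeq2 and 5 other settings. DESeq2 gave VCAM1 in TN vs Ctrl no adjusted p (unadjusted p = 0.000418).

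The sources used here do not say whether same-numbered libraries were prepared together, and they were not treated as pairs, since their deviations from the group means correlated from -0.168 to 0.363 over 15 pairs of groups, with 3 over 0.1. The replicate block changed no call of a member, with 3 members called in TN vs Ctrl and 1 in each timing comparison. Depth limits VCAM1 in the SCFA groups and ICAM4 in all, and the 2 libraries per group limit the rest.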
